A study of Mus musculus with 6 samples.

Results

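Marker genes of the CA2 and CA3 pyramidal cells of the hippocampus were followed in 6 libraries of hippocampal messenger RNA, 3 from young mice given repeated lidocaine injections and 3 from young control mice. The 8 genes described are Rgs14, Pcp4, Amigo2, Necab2, Cacng5, Nectin3, Bok and Iyd. They were taken by symbol, whatever the case of the letters, from the 22050 genes of the expression table, and each symbol matched 1 row. Lidocaine, a local anaesthetic, acts by blocking voltage-gated sodium channels, and the study asked how repeated exposure alters hippocampal gene expression. The labels give no dose, number of injections, strain or sex, and for the controls they do not say whether a vehicle was injected. Nothing in them ties the libraries to separate animals, and the p-values therefore reflect only how these libraries vary, which may be technical. Old mice, which belong to the study's design, were not analysed here.

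The hippocampus passes signals from the dentate gyrus to CA3 pyramidal cells over mossy fibres, and from CA3 to CA1. CA2 is a small field between CA3 and CA1 that is known for its role in social memory. Its cells carry proteins that damp calcium signalling. In mice the synapses it receives from CA3 resist long-term potentiation, the lasting strengthening of synapses after strong use. Rgs14, Pcp4, Amigo2, Necab2 and Cacng5 are used mainly as CA2 markers, and Nectin3, Bok and Iyd mainly as CA3 markers, although several are also made by other cells. In RNA from whole hippocampus, fewer cells of a type and less RNA per cell cannot be told apart.

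Library totals ran from 16013017 to 16984995 estimated counts with lidocaine and from 13887604 to 15990264 in controls. The table carries rat Ensembl identifiers although the labels name the mouse, so genes are named as the table names them and no coordinates are given. Rgs14, Pcp4, Amigo2, Necab2, Nectin3 and Bok were present in every library, whereas Cacng5 was listed at 0 in 3 libraries and Iyd had at most 8 counts. Of 13408 genes that passed the filter on low counts, edgeR's quasi-likelihood test called 2 at a Benjamini-Hochberg-adjusted p under 0.05, 0.0149% of those tested, both lower with lidocaine. Against that background, 0 of the 7 markers tested were called by edgeR. DESeq2, which called 0.151% of the genes it adjusted, and limma-voom, which called 0.0149%, also called 0 of the 7. In edgeR 0 of the 7 had an unadjusted p under 0.05, as 4.36% of all genes did. Iyd did not pass the filter. In 0 of the 8 did the lidocaine and control libraries separate, against 9.98% of all genes tested.

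Levels can be compared between genes only per transcript length, as FPKM (fragments per kilobase, adjusted for how many fragments a library mapped). Necab2 stood highest, with a mean FPKM of 69.7 ± 5.64 in lidocaine libraries and 68.5 ± 5.93 in control libraries (SD, n = 3 each). This level lay above that of 96.2% of the 16925 genes detected. Pcp4 followed with an FPKM of 35.9 ± 4.99 with lidocaine and 36.3 ± 3.69 in controls, then Bok with 33.3 ± 4.59 and 30.6 ± 3.84, then Rgs14 with 25.7 ± 5.71 and 25.95 ± 2.42 in the same groups. Library values of Pcp4 and Bok overlapped, as did those of Bok and Rgs14. Within each library Bok nevertheless stood above Rgs14, at an FPKM ratio of 1.02 to 1.49. The place of Pcp4 varied, as the ratio of Bok to Pcp4 ran from 0.652 to 1.26 and that of Rgs14 to Pcp4 from 0.515 to 1.05. Nectin3 had an FPKM of 10.2 ± 0.397 with lidocaine and 10.4 ± 0.626 in controls, below every library of Rgs14.

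The remaining markers were scarce. Amigo2 had an FPKM of 1.42 ± 0.372 with lidocaine and 1.52 ± 0.355 in controls, every library lying below all those of Nectin3, and 39.0% of detected genes lay below Amigo2. For Cacng5 the FPKM was 0.55, 1.13 and 0 in lidocaine libraries 1 to 3 and 0, 0.75 and 0 in control libraries 1 to 3. Iyd had an FPKM of 0.02 to 0.13 with lidocaine and 0.04 to 0.05 in controls. This level exceeded that of 13.1% of detected genes.

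**Figure D1:**
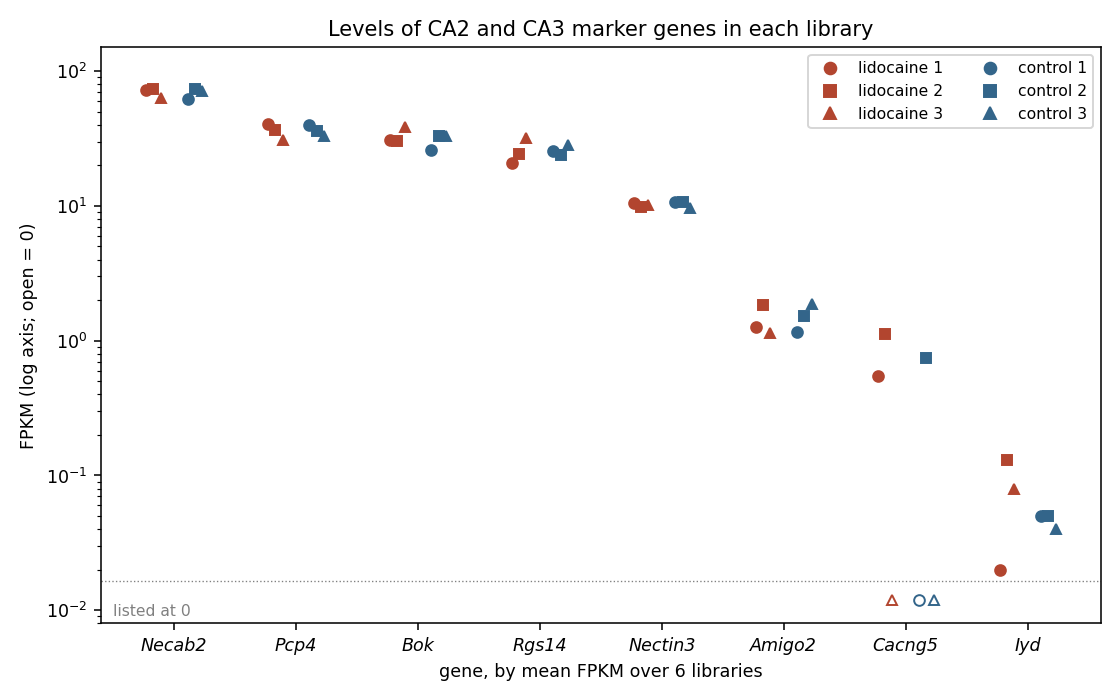
FPKM on a log axis for each of the 8 markers, ordered by their mean over 6 libraries, with lidocaine libraries (red) left of control libraries (blue) and open symbols for values listed at 0. Necab2, between 61.8 and 73.1, stands apart from the next genes, and Cacng5 is listed at 0 in lidocaine library 3 and control libraries 1 and 3.

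Rgs14 (ENSRNOG00000015616) encodes a scaffold that joins inhibitory G proteins to Ras and ERK signalling and, in mice, restrains long-term potentiation in CA2. It had 99.8, 117 and 157 CPM (estimated counts scaled to the TMM-adjusted library total) in lidocaine libraries 1 to 3, against 125, 116 and 139 CPM in control libraries 1 to 3. The lowest and the highest of the 6 values were both lidocaine libraries, and the control values lay between them. Group means were 125 ± 29.2 CPM with lidocaine and 127 ± 11.7 CPM in controls (SD, n = 3 each). The log2 fold change was -0.02 ± 0.17 (SE), and its 95% interval ran from -0.43 to 0.38 (edgeR with Benjamini-Hochberg adjustment, adjusted p = 0.997). Its coefficient of variation was 23.5% with lidocaine and 9.25% in controls, while counting error alone would give 2.22% and 2.32%. The difference in spread between the groups was not tested.

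Pcp4 (ENSRNOG00000001628) encodes a small protein that binds calmodulin and speeds its exchange of calcium. It had 35.5, 32.2 and 27.3 CPM in lidocaine libraries 1 to 3 and 35.8, 32.1 and 29.2 CPM in control libraries 1 to 3. Each group spanned nearly the same range, and the lowest value was lidocaine library 3. The mean was 31.7 ± 4.09 CPM with lidocaine and 32.4 ± 3.31 CPM in controls (SD, n = 3 each). On the log2 scale this is a fold change of -0.03 ± 0.12 (SE), and the interval spanned 0.801-fold to 1.19-fold.

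Necab2 (ENSRNOG00000015084), a neuronal calcium-binding protein that binds the metabotropic glutamate receptor mGluR5 and the adenosine receptor encoded by Adora2a, had 191, 192 and 169 CPM with lidocaine and 165, 195 and 188 CPM in controls. One library of each group, lidocaine 3 and control 1, lay below the other 4. Means of 184 ± 13.0 CPM with lidocaine and 183 ± 15.9 CPM in controls (SD, n = 3 each) gave a log2 fold change of 0.01 ± 0.08 (SE). Its interval, from 0.881-fold to 1.15-fold, was the narrowest of the set, and counts were whole numbers in all 6 libraries.

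Amigo2 (ENSRNOG00000007032) encodes a membrane adhesion protein with leucine-rich repeats. In lidocaine libraries 1 to 3 it had 6.59, 9.50 and 6.03 CPM, against 6.08, 8.02 and 9.78 CPM in control libraries 1 to 3. Low values near 6 and values above 9 occurred in both groups. The mean was 7.37 ± 1.87 CPM with lidocaine and 7.96 ± 1.85 CPM in controls (SD, n = 3 each), and the log2 fold change of -0.11 ± 0.24 (SE) left an interval from 0.626-fold to 1.37-fold. Its spread within groups, 25.3% with lidocaine and 23.2% in controls, exceeded the counting error of 9.12% and 9.22%.

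Cacng5 (ENSRNOG00000003288) encodes an auxiliary subunit of AMPA receptors, the channels that carry fast excitatory transmission. The table lists 39.1, 76.4 and 0 estimated counts in lidocaine libraries 1 to 3 and 0, 50.9 and 0 in control libraries 1 to 3. Libraries were thus either at exactly 0 or at 39 and above, in both groups, and all 3 values above 0 were fractional. Among 12650 genes that reached 30 counts in some library, 333 were listed at 0 in another, and 332 of these 333 had fractional counts, against 46.6% of all 12650. The limit of 30 was chosen after the values were seen. Such a 0 can be a failed estimate, so neither a mean nor a fold is given for Cacng5.

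Among the CA3 markers, Nectin3 (ENSRNOG00000002176), an adhesion protein of the junctions between mossy fibre terminals and CA3 dendrites, had the smallest coefficient of variation of the 8 in each group. It had 28.8, 26.8 and 28 CPM in lidocaine libraries 1 to 3 and 29.7, 29.8 and 26.6 CPM in control libraries 1 to 3. All lidocaine values lay between the lowest and the highest control value. Means were 27.8 ± 0.999 CPM with lidocaine and 28.7 ± 1.81 CPM in controls (SD, n = 3 each). The log2 fold change of -0.05 ± 0.09 (SE) had an interval from 0.840-fold to 1.12-fold. The coefficient of variation, 3.59% with lidocaine and 6.30% in controls, was close to the counting error of 4.69% and 4.85%.

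Bok (ENSRNOG00000018214), a BCL2 family protein that can promote cell death and binds inositol trisphosphate receptors, had 69.7, 68.1 and 88.4 CPM with lidocaine and 60.2, 75.0 and 74.5 CPM in controls. The highest value was lidocaine library 3 and the lowest control library 1, with the other 4 between 68 and 75. Its mean was 75.4 ± 11.3 CPM with lidocaine and 69.9 ± 8.40 CPM in controls (SD, n = 3 each). Of the markers tested it had the smallest unadjusted p, 0.425 in edgeR's quasi-likelihood test across all genes. The interval of its log2 fold change, 0.11 ± 0.13 (SE), ran from 0.875-fold to 1.33-fold, and the Benjamini-Hochberg-adjusted p was 0.995. Without lidocaine library 3 the log2 value was -0.019.

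Iyd (ENSRNOG00000016286), the enzyme that recovers iodide from iodotyrosines in the thyroid, is a CA3 marker in the mouse hippocampus. It was counted 1, 8 and 5 times in lidocaine libraries 1 to 3 and 3, 3 and 2 times in control libraries 1 to 3. Both the lowest and the highest counts were in the lidocaine group. The summed counts of 14 with lidocaine and 8 in controls, scaled to the library totals, gave a ratio of 1.58 with an exact 95% interval from 0.62 to 4.36. The interval covers counting error only and includes a ratio of 1.

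**Figure D2:**
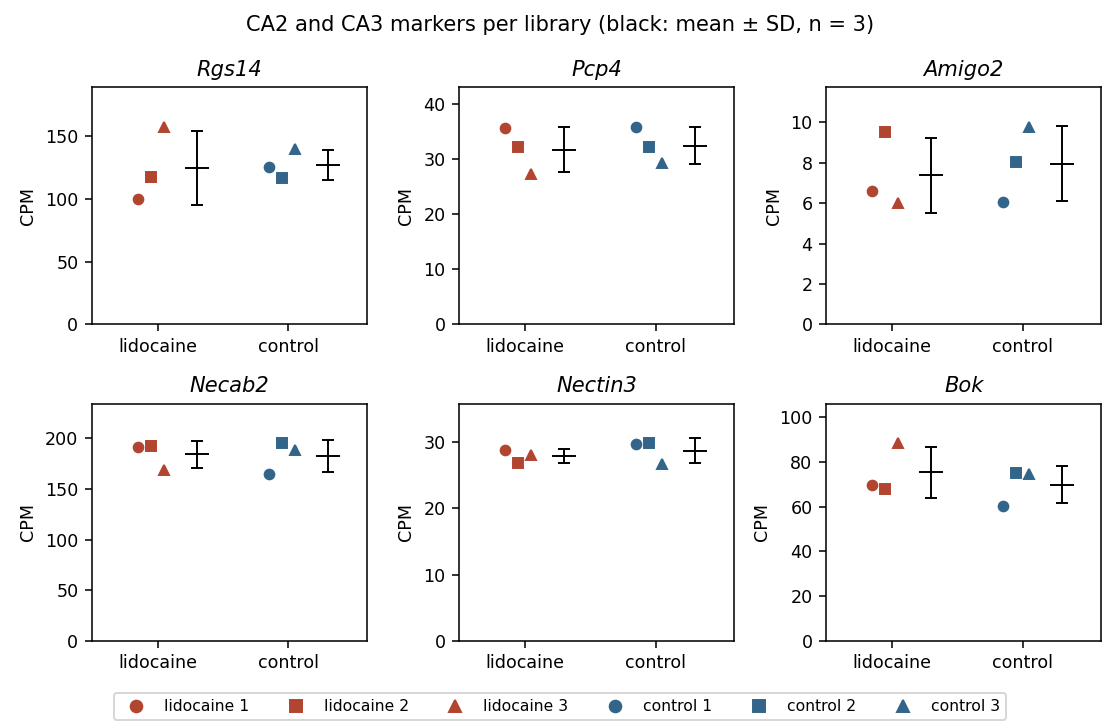
CPM of the 6 markers with counts in every library and a mean above 1 CPM, with lidocaine left of control; coloured points are libraries, and black marks with bars are the mean ± SD of 3 libraries. The groups overlap in every panel, and Rgs14 spreads from 99.8 to 157 CPM with lidocaine and from 116 to 139 CPM in controls.

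Of the 7 markers tested, Cacng5 included, 3 had a positive and 4 a negative log2 fold change, with a median of -0.02, against a median of 0.00 over all 13408 genes, of which 6695 were positive and 6713 negative. Without Cacng5 the median was -0.03, with 2 positive and 4 negative values. The median size of the fold change, whatever its sign, was 0.05 in the markers and 0.10 in all genes on the log2 scale. Genes were not matched for level here, and Necab2, Pcp4, Bok and Rgs14 each lay above at least 88% of detected genes. Adjusted p-values in edgeR with Benjamini-Hochberg adjustment were 0.995 to 0.997 for all 7. Among the 6 markers without Cacng5, Necab2 had the narrowest interval and Amigo2 the widest.

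The markers did not share 1 pattern across libraries. In lidocaine library 3, Rgs14 stood 0.33 and Bok 0.29 above their own means on the log2 CPM scale, while Amigo2 stood at -0.31, Pcp4 at -0.22 and Necab2 at -0.11. In lidocaine library 1, Rgs14 was at -0.32 and Pcp4 at 0.15. Control library 1 was low for Amigo2 at -0.30, Bok at -0.26 and Necab2 at -0.15, whereas Pcp4 was at 0.17. The mean over the 6 markers without Cacng5 stayed between -0.05 and 0.03 in lidocaine libraries and between -0.08 and 0.07 in control libraries.

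Rgs14 and Pcp4, both CA2 markers, did not keep a constant ratio. The quotient of their FPKM values was 0.515, 0.663 and 1.05 in lidocaine libraries 1 to 3 and 0.640, 0.660 and 0.868 in control libraries 1 to 3. Both groups had their highest ratio in library 3, and the group ranges overlapped. Bok set against Rgs14, a CA3 marker against a CA2 marker, gave FPKM ratios of 1.49, 1.25 and 1.21 with lidocaine and 1.02, 1.38 and 1.16 in controls. These ranges also overlapped.

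**Figure D3:**
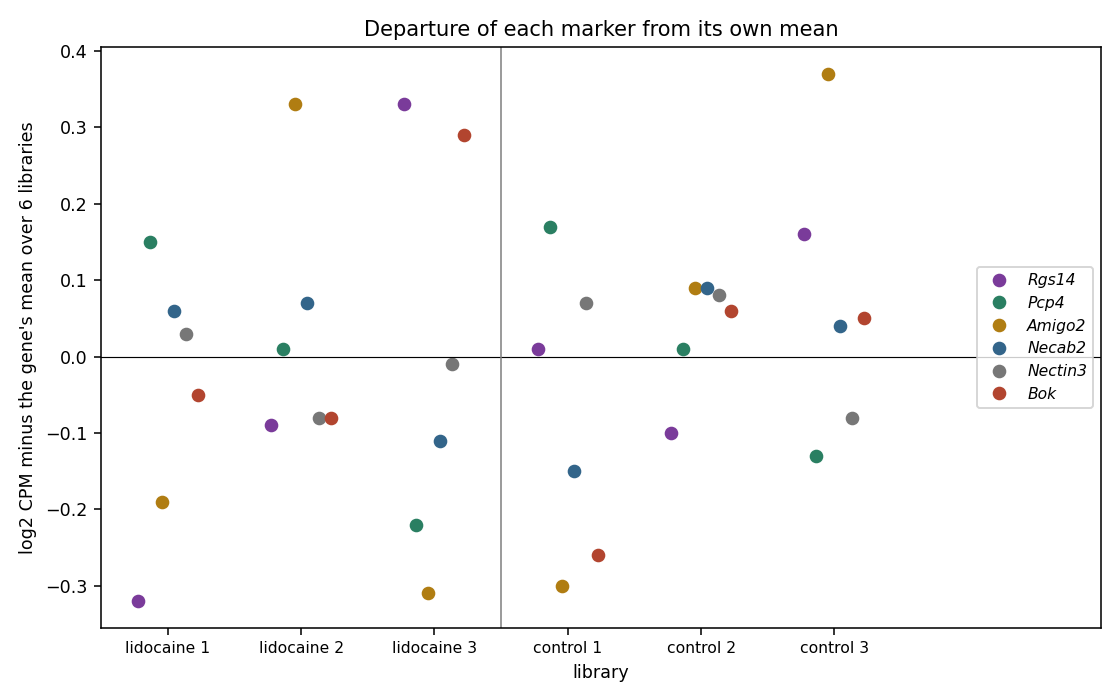
Log2 CPM of 6 markers in each library, minus the gene's own mean over the 6 libraries, with lidocaine libraries left of control libraries. Rgs14 and Bok lie at 0.33 and 0.29 in lidocaine library 3, where Amigo2 lies at -0.31 and Pcp4 at -0.22, and no marker has all lidocaine points on one side of its control points.

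Other genes enriched in the same fields, in neighbouring fields and among binding partners were read from the same fit. In the lists of CA2, CA3, CA1, granule cell, pyramidal and partner genes, 0 genes had an unadjusted p under 0.05 in edgeR, and DESeq2 and limma-voom called 0. Of 10 further CA2 markers listed, 8 were tested, with 0 called in either direction, 4 positive and 4 negative fold changes and a median log2 fold change of 0.00. The smallest p belonged to Ptpn5, the striatal-enriched phosphatase STEP, at 75.8 ± 8.41 CPM with lidocaine and 85.2 ± 3.59 CPM in controls (SD, n = 3 each), or -0.17 ± 0.09 on the log2 scale. Srgap2, a regulator of spine maturation, was next at 88.7 ± 4.91 CPM with lidocaine and 79.7 ± 7.05 CPM in controls, with 0.15 ± 0.08 on the same scale. For both, edgeR gave a Benjamini-Hochberg-adjusted p of 0.995. The vasopressin receptor Avpr1b, a receptor typical of CA2, had 0 to 3 counts in each group and was not tested.

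Of 9 further CA3 markers, 8 were tested and 0 were called, with 5 positive and 3 negative values and a median of 0.07. Spock1, a secreted proteoglycan, had 0.10 ± 0.06 and the neuronal RNA-binding protein Elavl4 had -0.26 ± 0.16 on the log2 scale, the members with the smallest p. Grik4, a kainate receptor subunit of CA3, had 74.6 CPM with lidocaine and 62.7 CPM in controls, or 0.25 on the log2 scale, within an interval of -0.27 to 0.77. Plagl1 was listed at 0 in all 6 libraries.

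**Figure D4:**
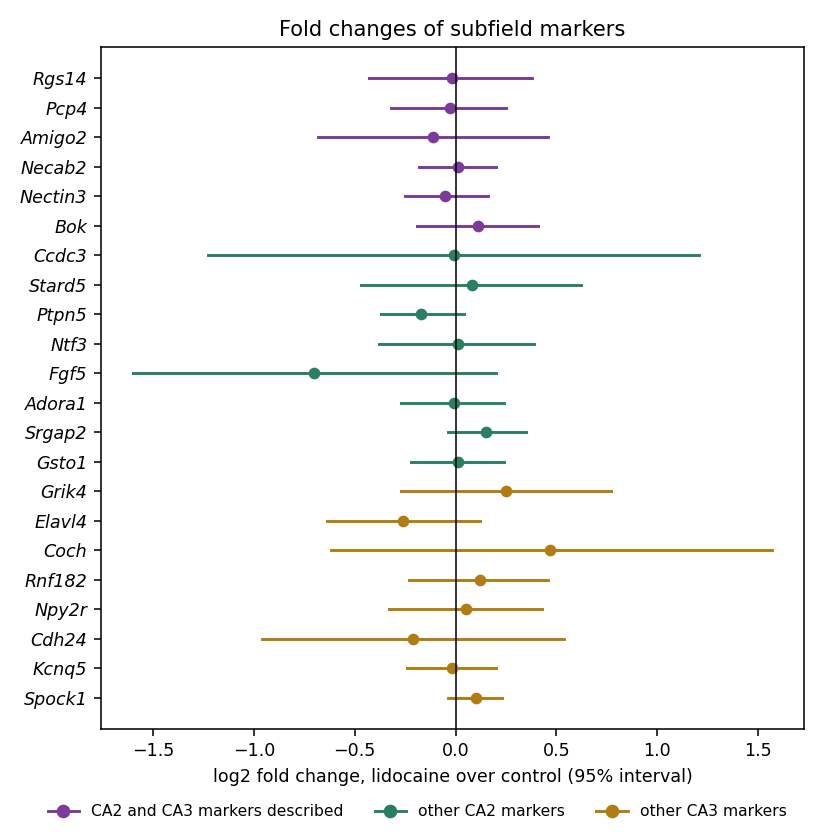
Log2 fold change, lidocaine over control, with its 95% interval from edgeR, for 6 of the markers (purple), 8 other CA2 markers (green) and 8 other CA3 markers (ochre). Every interval includes 0, and Necab2 and Nectin3 have the narrowest of the purple ones.

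Neighbouring fields served for comparison. Of the CA1 markers, 7 were tested and 0 called, with 1 positive and 6 negative values and a median log2 fold change of -0.06. Mpped1 and Ccn3 had the smallest p, with -0.04 ± 0.06 and -0.07 ± 0.11. Of the dentate granule cell markers, 7 were tested and 0 called, with a median of -0.08, led by Pdzd2 at -0.13 ± 0.09 and C1ql2, a synaptic protein of mossy fibres, at 0.13 ± 0.09. Prox1, the transcription factor that defines granule cells, was listed at 0, 0 and 22.2 estimated counts in lidocaine libraries 1 to 3 and at 0, 21.0 and 21.7 in control libraries 1 to 3. C1ql2, by contrast, had 92.3 CPM with lidocaine and 84.5 CPM in controls. The granule cell median includes Prox1. That median turned to 0.067 without lidocaine library 1, 0.072 without lidocaine library 2 and 0.066 without control library 3. It stayed negative when any other library was left out. Genes made by pyramidal cells, though not all by them alone, had a median of 0.08 over 5 genes, with 0 called. The list was led by the vesicular glutamate transporter Slc17a7 at 0.12 ± 0.06 and Satb1 at -0.24 ± 0.13. Of the 5, 4 were positive and 1, Satb1, negative.

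Among genes of these 4 hippocampal lists, likeness to the mean profile of the 7 tested markers was measured over 6 libraries as a root mean square distance in log2 CPM. The nearest of 30 genes were Ccn3 at 0.275, Gpr161 at 0.279 and Kcnq5 at 0.284, of which the first pair are CA1 markers and Kcnq5 a CA3 marker. This mean follows Cacng5, whose values listed at 0 outweigh the others. Without Cacng5, a choice made after the values were seen, the nearest were the CA3 marker Spock1 at 0.078, the granule cell marker Pdzd2 at 0.086 and the CA1 marker Mpped1 at 0.090. That mean is nearly flat, so the distance to it is small for any gene that varies little.

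Signalling partners of Rgs14 and Pcp4 were compared next. Of 16 tested genes for G proteins, Ras and ERK signalling and calmodulin, 0 were called, 10 had positive and 6 negative values, and the median was 0.01. The inhibitory G protein subunits that Rgs14 binds, Gnai1 and Gnai3, had log2 fold changes of 0.01 and 0.02, and Hras, which it also binds, -0.01. The list's smallest p belonged to Pcp4l1, a relative of Pcp4, at 1.25 ± 0.22 CPM with lidocaine and 1.91 ± 0.401 CPM in controls (SD, n = 3 each). On the log2 scale it had -0.61 ± 0.31, and edgeR gave it a Benjamini-Hochberg-adjusted p of 0.995. Values of Pcp4l1 and of the G protein subunit Gnao1 were lower in every lidocaine library than in any control, which 5.09% of all genes showed.

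Of 12 tested adhesion and binding partners, 0 were called, 2 had positive and 10 negative values, and the median was -0.04. Nectin1, the partner of Nectin3 across the mossy fibre junction, had 257 CPM with lidocaine and 259 CPM in controls, a log2 fold change of -0.01, and Afdn, the nectins' cytoplasmic anchor afadin, had 0.06. The receptors that Necab2 binds, Grm5 and Adora2a, had -0.12 and -0.42 ± 0.22, with Adora2a at 4.84 ± 0.922 CPM with lidocaine and 6.5 ± 1.23 CPM in controls (SD, n = 3 each). The inositol trisphosphate receptors Itpr1 and Itpr2 had -0.10 and -0.02. Amigo1, a relative of Amigo2, had 0.07.

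Perineuronal nets, the matrix coats of some neurons, also surround CA2 pyramidal cells in mice. Of 8 net genes tested, 0 were called, with 4 positive and 4 negative values and a median of -0.01. Ncan, neurocan, had 655 ± 40.7 CPM with lidocaine and 575 ± 14.2 CPM in controls (SD, n = 3 each), and the link protein Hapln4 had 486 ± 78.9 CPM with lidocaine and 406 ± 16.4 CPM in controls. Their log2 fold changes of 0.19 ± 0.06 and 0.26 ± 0.11 had unadjusted p-values of 0.0136 and 0.0485, and edgeR's Benjamini-Hochberg-adjusted p was 0.995 for each. DESeq2 and limma-voom called 0 of the 8. Both were higher in every lidocaine library than in any control, which 4.89% of all genes showed. Acan, aggrecan, had 18.1 CPM with lidocaine and 18.7 CPM in controls.

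Several markers are also made outside CA2 and CA3, Pcp4 in striatum, thalamus and deep cortex among others. Lists for striatum, thalamus and cortex, the last not confined to deep layers, held 0 genes called by edgeR, DESeq2 or limma-voom. Of their members 1, Tle4, had an unadjusted p under 0.05 in edgeR. The lists' median log2 fold changes were -0.11 over 8 striatal, -0.19 over 7 thalamic and -0.10 over 7 cortical genes. In the striatal list the smallest p belonged to Adora2a at -0.42 ± 0.22 and Drd2 at 0.45 ± 0.27. In the thalamic list it was Rgs16 at -0.24 ± 0.15 and Rora at -0.20 ± 0.16. In the cortical list it was Tle4 at -0.37 ± 0.15 and Rorb at -0.14 ± 0.13. Summed thalamic markers were 111.8 to 132.9 CPM with lidocaine and 126.4 to 131.7 CPM in controls. Choroid plexus genes summed to 4.29 to 8.51 CPM with lidocaine and 5.46 to 13.7 CPM in controls, with Kcne2 at -0.61 ± 0.43 and Aqp1 at 0.39 ± 0.40.

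Markers of non-neuronal cells were measured in the same libraries. The 10 oligodendrocyte genes tested all had negative values, with a median of -0.35, and summed to 8418 to 11610 CPM with lidocaine and 11650 to 13570 CPM in controls. The 7 meningeal genes had a median of 0.48 and summed to 87.0 to 118 CPM with lidocaine and 71.55 to 78.5 CPM in controls. In edgeR 0 members of either list were called, with 5 and 2 at an unadjusted p under 0.05, against 4.36% of all genes. DESeq2 called 1 of each list and limma-voom 0. Relative to the control mean, oligodendrocyte genes averaged -0.57, -0.38 and -0.09 in log2 CPM in lidocaine libraries 1 to 3. Control libraries 1 to 3 had -0.11, 0.12 and -0.01, so lidocaine library 3 lay within the control range. Meningeal genes averaged 0.68, 0.29 and 0.15 with lidocaine and 0.03, 0.07 and -0.09 in controls, in the same order. Mbp at -0.39 ± 0.09 and Opalin at -0.43 ± 0.13 led the oligodendrocyte list, and Igf2 at 0.57 ± 0.11 and Aldh1a2 at 0.70 ± 0.30 the meningeal list. Astrocyte genes had a median of 0.03 over 6 genes, with Gfap at 0.09 ± 0.07 and Slc1a3 at -0.09 ± 0.08. Microglial genes had 0.07 over 6, with Tmem119 at 0.16 ± 0.07 and P2ry12 at 0.22 ± 0.15. The part of these cell types in the CA2 and CA3 values was not tested.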

How the data were processed

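Total RNA of mouse hippocampus was extracted with an RNeasy kit and made into libraries with a SMARTer mRNA kit, per the labels' protocols. The submitters' processing notes name mm10. The aligner, the annotation and the counting program were not given in the sources used here. Per gene and library, the authors deposited estimated counts that are not normalised, 30.4% of genes having a fractional count (beyond 1e-06 of a whole number), and FPKM values, per the file headers. Use of strand and the treatment of reads shared by similar genes are not stated. Counting of mouse reads on a rat annotation would make a gene's level depend on its similarity between the species. This would bear on levels compared between genes. Whether the reads themselves are of mouse or of rat was not tested.

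Samples were grouped by their titles, and columns matched to them by group letter and number. Estimated counts were rounded, filtered with filterByExpr (minimum count 10) and scaled by TMM. Lidocaine was compared with control with edgeR 4.0.16 in R 4.3.3 (quasi-likelihood, robust, two-sided, no covariates), with Benjamini-Hochberg adjustment over all 13408 genes tested and calls at 0.05. Standard errors and 95% intervals came from the F statistic. Log2 CPM used a prior count of 2. DESeq2 1.42.0, limma-voom (limma 3.58.1), limma on log2(FPKM + 1) and on log2(FPKM + 0.1), RLE or no scaling, no filter, a replicate block and leaving out each library were alternatives. An exact permutation test of 3 against 3 cannot give p under 0.1. Every pair of libraries differed by more than counting error (chi-square of 10.27 to 17.95 per degree of freedom).

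The 8 members and the 16 comparison lists (137 of 145 entries matched) were chosen with earlier results of these data known, so no list was tested. Named from each comparison list are called genes or, with none called, the 2 with the smallest p, plus direct binding partners and the 3 genes nearest the members' profile. Grik4, Avpr1b, Plagl1, Prox1, Acan, Gnao1 and Amigo1 were named after their values were seen. A few genes the rule selects are not reported here. The edgeR step was tested on simulated data.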

Additional observations from a re-analysis of the deposited data

How the results depend on the processing

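Under all 14 alternative fits, and at an unadjusted p under 0.05, 0 of the CA2 and CA3 markers were called, and their median log2 fold change stayed between -0.035 and 0.05 (without control library 3). Signs of single markers turned when 1 library was left out. The log2 fold change of Rgs14 then ran from -0.22 (without lidocaine library 3) to 0.12 (without lidocaine 1), Pcp4 from -0.12 (without lidocaine 1) to 0.065 (without lidocaine 3) and Amigo2 from -0.33 (without lidocaine 2) to 0.065 (without control 3). Necab2 ran from -0.059 (without control 1) to 0.069 (without lidocaine 3), and Bok from -0.019 (without lidocaine 3) to 0.18 (without lidocaine 2). Nectin3 kept its sign in all 14, from -0.10 to -0.02. Cacng5, listed at 0 in 3 libraries, is left out of these ranges. The cause was not tested. Ranked by CPM in place of FPKM, 2 markers changed rank. Over all genes, DESeq2 called 14 higher and 9 lower, limma on log2(FPKM + 0.1) 1 higher and 4 lower, and an unadjusted p under 0.05 gave 268 higher and 317 lower. Leaving out 1 library gave 0 to 1 higher and 0 to 6 lower. With the replicate block, 0 genes were called lower. Deviations of same-numbered libraries from their group means correlated at 0.05, 0.04 and -0.01 for numbers 1 to 3, over 12851 genes. Lidocaine libraries 1 and 2 correlated best with the control of their own number, and lidocaine 3 with control 1, at 0.01. With 3 libraries per group, such values cannot show whether the numbers pair the libraries. Of 224 recomputed medians of comparison lists, 212 moved by less than 1 SD between libraries and 12 by more. Counting error was largest for Iyd, at 46.3% of the mean count with lidocaine and 61.2% in controls.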
